A study of Homo sapiens with 2 samples.

Results

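The beta-globin cluster promoters are the promoter fragments of HBB, HBD and HBG1 on chromosome 11, read here in promoter-capture Hi-C of K562 cells. An interaction, or pair, was taken when 1 end was the captured (bait) fragment that holds an end of 1 of these genes, or when 1 end overlapped the stretch from 5.27 to 5.30 Mb on chromosome 11 (build hg38), in which the locus control region lies. By this rule 46 of the 138160 pairs in either list were members, 33 of 91305 after ponatinib and 28 of 84049 after DMSO. Of the 46 pairs, 23 had a globin fragment at 1 end, 30 had an end in the control region and 7 had both. K562 is an established line of chronic myelogenous leukaemia that carries the BCR-ABL1 fusion and has erythroid features. The cells had 24 h of 100 nM ponatinib, an inhibitor of the BCR-ABL1 kinase, or 24 h of the vehicle DMSO, and the labels name no other treatment in either arm. There was 1 library per treatment, so no test of the treatment was possible and no difference below has a replicate check. The lists give contacts and no expression, so the cell label could not be set against marker transcripts. Pairs between chromosomes 9 and 22, the partners of the fusion, made up 26.2% of pairs between chromosomes after ponatinib and 26.0% after DMSO.

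The beta-globin genes lie in a row in the order in which they are used in development, from embryonic HBE1 through the fetal gene pair HBG1 and HBG2 to HBD and adult HBB. Their strong erythroid expression depends on the locus control region, a group of enhancer elements beyond HBE1 that comes close to the active promoter by looping of the DNA between them. Olfactory receptor genes flank the cluster on both sides, and insulator sites bound by CTCF are known at its borders. K562 cells are known to express the fetal and embryonic genes and very little HBB.

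HBB, which codes for the adult beta chain, lies at 5225464 to 5227071, and both of its ends are inside the bait fragment from 5221817 to 5229615 (7799 bp). HBD, the minor adult delta chain, lies at 5232838 to 5234483 in the next fragment, from 5229616 to 5247135. That fragment is 17520 bp long and also holds both ends of the pseudogene HBBP1 and of the non-coding gene BGLT3, so contacts of these genes cannot be told apart from those of HBD. HBG1, a fetal gamma chain, lies at 5248269 to 5249857, and the bait fragment from 5248570 to 5251195 (2626 bp) holds its end at the higher coordinate, which is the 5′ end for the cluster's known direction of transcription. HBG2, the second gamma gene, and HBE1 had no listed bait fragment and were not analysed here. The gamma genes are near copies of each other, so reads of the HBG1 fragment may be shared with HBG2, and the part of this in its values was not tested.

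Of the member promoters, HBD matched an entry of the RefSeq promoter table (GRCh38.p14). The 250 bases before its start are shown because the HBD fragment had the most control region contacts of the member fragments. The 250 bases before the start of OR51V1, an olfactory receptor gene, are set beside them, since its fragment holds the coding gene nearest to HBB on the low-coordinate side and also contacted the control region in both lists. Both sequences are on the minus strand, HBD at chr11:5234484-5234733 and OR51V1 at chr11:5200683-5200932, and capitals mark the motifs found.
HBD: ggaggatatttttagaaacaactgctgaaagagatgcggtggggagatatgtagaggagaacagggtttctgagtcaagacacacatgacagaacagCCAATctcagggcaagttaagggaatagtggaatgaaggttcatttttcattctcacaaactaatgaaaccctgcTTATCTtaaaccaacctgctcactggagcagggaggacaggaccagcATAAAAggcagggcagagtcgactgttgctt
OR51V1: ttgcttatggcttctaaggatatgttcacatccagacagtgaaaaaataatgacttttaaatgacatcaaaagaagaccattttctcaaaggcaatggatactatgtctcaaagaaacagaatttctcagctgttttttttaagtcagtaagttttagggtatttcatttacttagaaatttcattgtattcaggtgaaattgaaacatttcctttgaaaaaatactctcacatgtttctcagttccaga
The 4 motifs below were searched on both strands, and they do not overlap each other in these windows. CCAAT, the box bound by NF-Y, was found once in HBD, at -153 to -149 from the start. Of 35116 promoter windows of this length 32.0% hold it. Whether this run of letters serves as the CCAAT box of the HBD promoter was not tested. AGATAA, a form of the site of the GATA factors, was found once in HBD on the opposite strand, where it reads TTATCT, and 9.17% of windows hold it. ATAAAA, resembling the box bound by TBP, was found once, ending 26 bases before the start, and 14.8% of windows hold it. CACCC, the box of the KLF factors, was not in the HBD window, and 54.7% of windows hold it. None of the 4 runs of letters was in the OR51V1 window. The annotated OR51V1 gene is 948 bp long, and whether its annotated start is where transcription begins was not tested. Their absence there therefore need not describe the OR51V1 promoter.

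The member fragments had 15 pairs after ponatinib (exact Poisson 95% interval 8.40 to 24.7) and 12 after DMSO (6.20 to 21.0). The 4 pairs in both lists were 26.7% of the ponatinib pairs (exact binomial 95% interval 7.79 to 55.1%) and 33.3% of the DMSO pairs (9.92 to 65.1%). Over the whole lists 40.7% of ponatinib pairs and 44.3% of DMSO pairs were shared, values inside both intervals. The ponatinib share was 53.3% with ends matched within 10 kb and 12.5% at scores of at least 7. The DMSO share was 41.7% with ends matched within 10 kb and 100% at scores of at least 7, there from 1 pair. The whole-list shares above are for identical pairs at any listed score, so they cannot be set beside these values. Intervals cover counting error only and treat pairs as independent, which neighbouring fragments are not. Per gene, HBB had 1 pair after ponatinib and 2 after DMSO, HBD had 10 and 6 in the same order, and HBG1 had 5 in each. As the background, 9787 genes had 5 or more interactions in total, of which 9.92% passed a 2-fold excess after ponatinib and 6.26% a 2-fold deficit, counted as (ponatinib + 1)/(DMSO + 1). Neither HBD nor HBG1 was past that fold, and HBB was under the minimum of 5. The median over 17883 bait fragments was 3 pairs in each list. The HBB fragment lay below that median, while those of HBD and HBG1 lay above it.

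**Figure D1:**
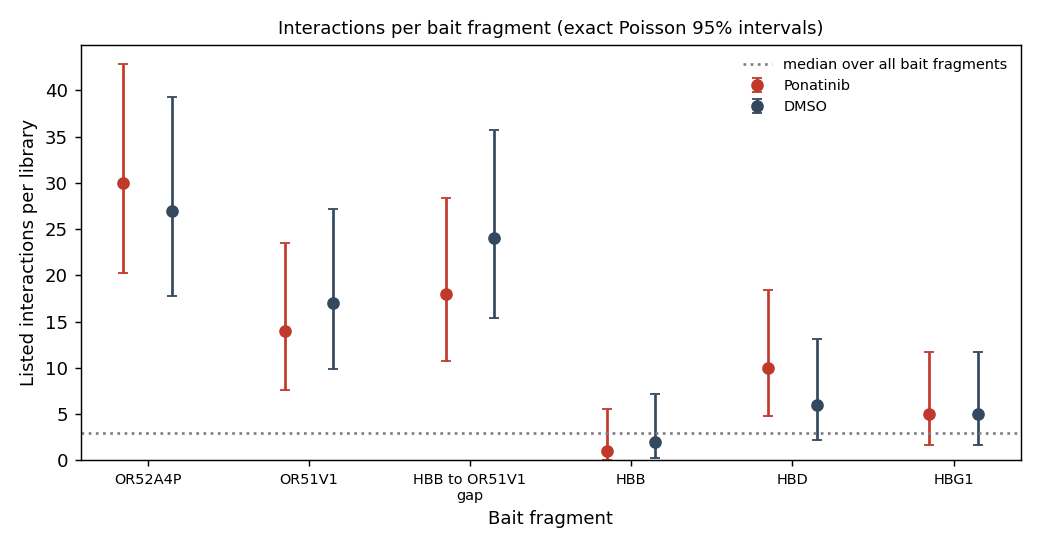
Number of listed interactions (y axis) of 6 bait fragments (x axis) in the ponatinib library (left of each pair) and the DMSO library (right), with exact Poisson 95% intervals and the median over all bait fragments as a dotted line. The HBB, HBD and HBG1 fragments had 1, 10 and 5 interactions after ponatinib and 2, 6 and 5 after DMSO. The 3 flanking fragments drawn had more, 14 to 30 after ponatinib and 17 to 27 after DMSO. Not all flanking fragments did. The OR52A5 fragment, not drawn, had 5 after ponatinib and 7 after DMSO, and the fragment from 5182475 to 5187017, not drawn, had 1 in each.

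The HBB fragment shared no partner between the libraries. After ponatinib its 1 partner was the fragment from 5368791 to 5370715, 144 kb away inside the long annotated span of the olfactory receptor gene OR51B5, with a score of 5.37. After DMSO its partners were the control region fragment from 5289467 to 5292119, 65.1 kb away (score 5.87), and the bait fragment from 5342360 to 5347058, 119 kb away (score 6.15). The score is the authors' own value for each interaction, and no listed score is below 5. All 3 HBB partners lay on the control region side, and all 3 scores were below the medians of their lists, above 16.3% of the ponatinib list and above 34.7% and 42.5% of the DMSO list.

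The HBD fragment contacted 4 control region fragments after ponatinib and 2 after DMSO. Its pair with the fragment from 5286158 to 5289466, 49.4 kb away, scored 9.08 after ponatinib and 6.07 after DMSO. Next to it, the fragment from 5289467 to 5292119, 52.4 kb away, scored 8.55 after ponatinib and 6.47 after DMSO. Both of these contacts were in both lists, each with the higher score in the ponatinib list. Fragments nearer to HBE1, at 5279020 to 5280939 (41.6 kb away) and at 5284252 to 5286157 (46.8 kb away), were partners after ponatinib, with scores of 7.71 and 7, and were not listed after DMSO. The 4 control region fragments of HBD after ponatinib thus lay at scores of 7 to 9.08, and the 2 after DMSO at 6.07 and 6.47.

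Elsewhere, the HBD fragment paired with the HBG1 fragment, 11.5 kb away, in both lists, scoring 5.29 after ponatinib and 5.25 after DMSO. This was the only listed pair between member fragments. On the low-coordinate side HBD paired after ponatinib with the bait fragment of OR52A5, an olfactory receptor gene (5125377 to 5133676, score 8.54), and with the bait fragment from 5121004 to 5124695 that holds an end of the pseudogene OR52A4P (score 5.65). After DMSO it paired with the fragment next to that of OR52A4P, from 5119715 to 5121003 (score 5.08). These 3 partners lay 109 to 118 kb from HBD, and none was in both lists as an identical pair. On the far side of the control region, partners inside OR51B5 at 5368042 to 5368790 and at 5370716 to 5371614 scored 6.22 and 5.53 after ponatinib and were not listed after DMSO.

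Distant HBD contacts were found in 1 list each. After ponatinib a fragment holding an end of the non-coding gene LINC02749 (4184983 to 4195229), 1048 kb away, scored 7.24. After DMSO a bait fragment inside ILK, a gene of cell adhesion (6604187 to 6605401), 1366 kb away, scored 6.90, and a fragment on chromosome 15 (50362396 to 50365598) scored 5.45. The chromosome 15 pair was the only member pair between chromosomes. Over the 10 pairs after ponatinib the median HBD score was 7.12, with 6 at 7 or more, and over the 6 pairs after DMSO it was 5.76, with none at 7 or more.

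HBG1 had 2 control region partners after ponatinib and none after DMSO. The fragment from 5286158 to 5289466, 37.9 kb away, scored 9.22, the highest score of any member pair, and the fragment from 5289467 to 5292119, 40.9 kb away, scored 6.07. These are the 2 control region fragments that HBD contacted in both lists. After DMSO HBG1 was instead listed with 2 fragments inside OR51B5 beyond the control region, at 5368042 to 5368790 (score 5.41) and at 5370716 to 5371614 (score 5.86), which were partners of HBD after ponatinib. The share of HBG1 pairs that reached the control region was 40% after ponatinib (5.27 to 85.3%) and 0% after DMSO (0 to 52.2%).

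The HBG1 contact with the OR52A4P fragment, 127 kb away, was in both lists and scored 7.36 after ponatinib and 7.55 after DMSO. It was the one shared member pair with the lower score in ponatinib, while the other 3 were higher. In the whole lists 19949 of 37194 shared pairs were higher after ponatinib. Of the other low-coordinate partners, a fragment holding an end of OR52A1 (5147154 to 5160348) scored 5 after ponatinib, and a fragment with no annotated gene (5140996 to 5144071) scored 5.30 after DMSO. HBG1 thus had 2 partners on each side of the cluster and 1 inside it in both lists, but only the OR52A4P and HBD fragments were the same.

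**Figure D2:**
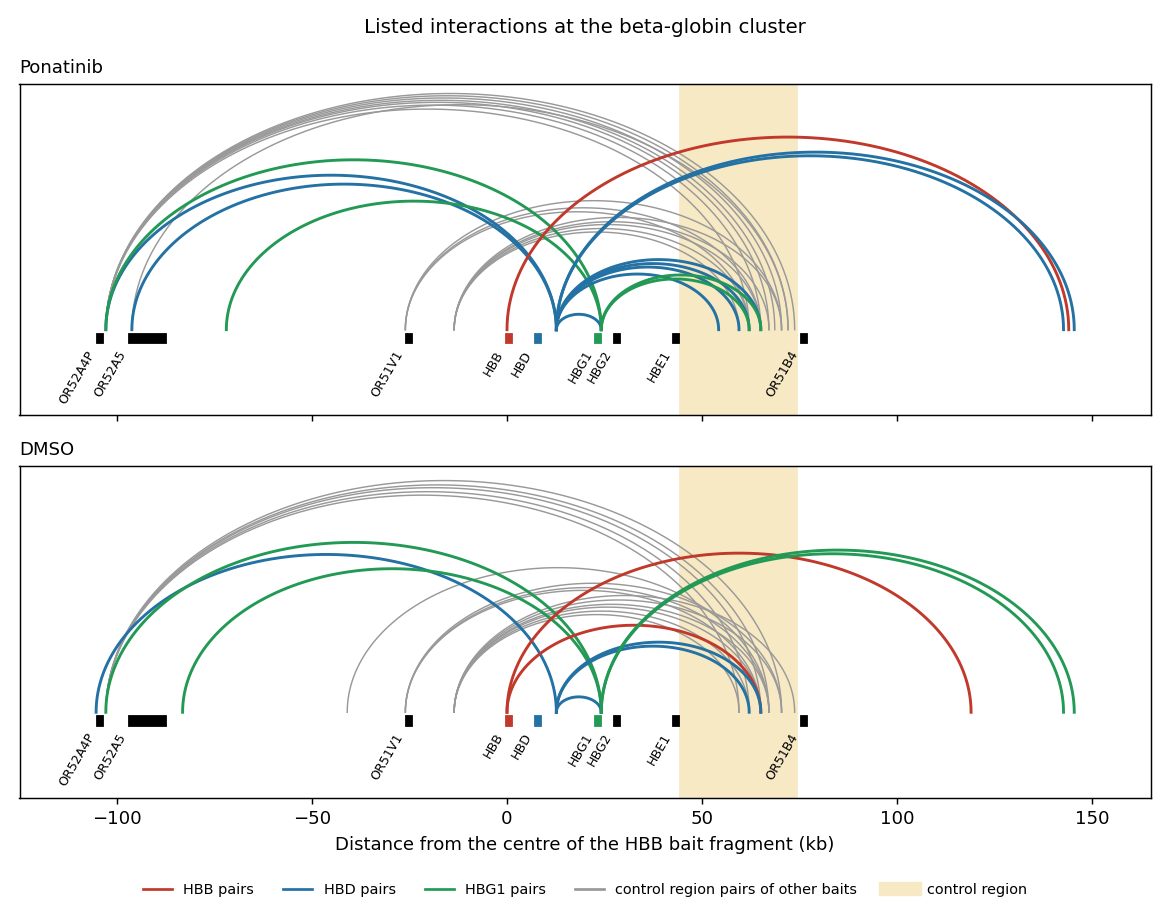
Listed interactions around the cluster after ponatinib (top) and after DMSO (bottom), drawn as arcs between fragment centres along the distance from the centre of the HBB bait fragment (x axis, kb). Arc height shows distance, not score, and pairs with more distant partners are not drawn. Coloured arcs are pairs of HBB, HBD (which includes the HBD to HBG1 pair) and HBG1, grey arcs are control region pairs of other bait fragments, and the shaded band is the control region. HBD and HBG1 reached the band with 4 and 2 arcs after ponatinib and with 2 and 0 after DMSO, and HBB reached it with 0 and 1.

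Together, 6 of the 15 member pairs after ponatinib (40%, exact binomial 95% interval 16.3 to 67.7%) and 3 of the 12 after DMSO (25%, 5.49 to 57.2%) reached the control region. With 1 library per treatment this difference was not tested. The median distance of member pairs on chromosome 11 was 96.1 kb after ponatinib and 118 kb after DMSO, against 235 and 221 kb over all pairs within this chromosome. Partners at higher coordinates than the cluster numbered 9 after ponatinib and 7 after DMSO, and those at lower coordinates 5 and 3. No member pair scored 10 or more in either list. Member scores spanned 5 to 9.22 after ponatinib, with a median of 7, and 5.08 to 7.55 after DMSO, with a median of 5.87. The medians over the whole lists were 6.55 and 6.47.

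The libraries differed in how many member pairs had higher scores. At a score of 7 or more there were 8 member pairs after ponatinib, 53.3% of them, and 1 after DMSO, 8.33%. In the whole lists these shares were 42.2% and 40.3%. Of the 8 pairs, 6 were of HBD and 2 of HBG1, and 5 ended in the control region. The single DMSO pair was the HBG1 contact with the OR52A4P fragment. Scores were not normalised between the libraries, read depth is unknown, and the part of either in this difference was not tested.

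**Figure D3:**
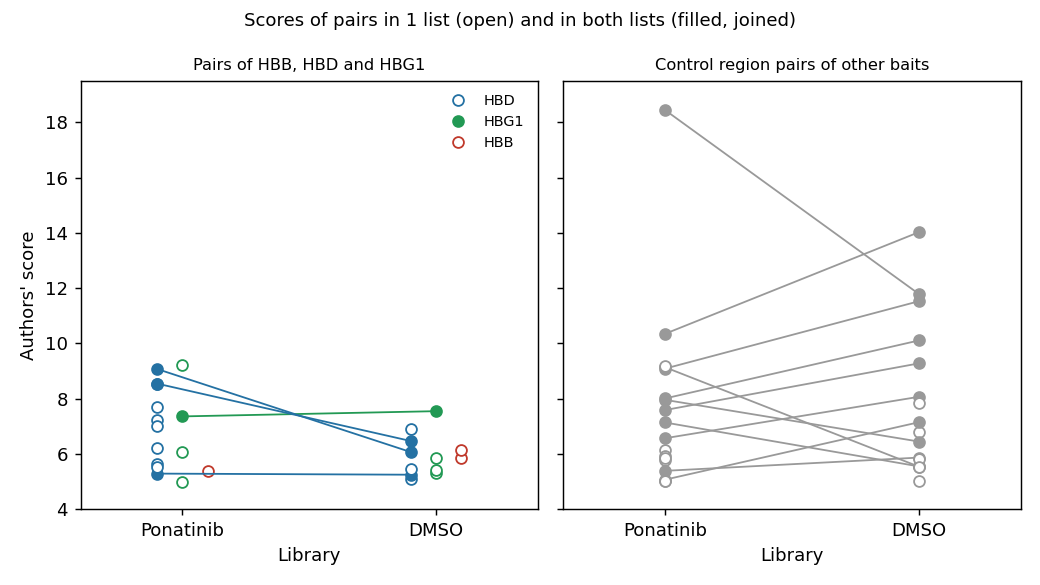
The authors' score (y axis) of each pair in the ponatinib library (left in each panel) and the DMSO library (right), for pairs of HBB, HBD and HBG1 (left panel, the HBD to HBG1 pair drawn as HBD, points shifted sideways by gene) and for control region pairs of other bait fragments (right panel). Filled joined points are pairs in both lists and open points are pairs in 1 list. Member scores reached 9.22 after ponatinib and 7.55 after DMSO, and those of other baits 18.45 and 14.03.

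With both lists pooled, HBD and HBG1 had 5 partner fragments in common, which is 38.5% of the 13 partners of HBD and 62.5% of the 8 of HBG1: the OR52A4P fragment, 2 control region fragments and 2 fragments inside OR51B5. HBB shared 1 of its 3 partners with each of them, the control region fragment from 5289467 to 5292119, which was the only fragment contacted by all 3 members. Within a single list the overlap was smaller. HBD and HBG1 had 3 partners in common after ponatinib and 0 after DMSO, while HBB and HBD had 0 after ponatinib and 1 after DMSO, and the 2 fragments inside OR51B5 were partners of HBD after ponatinib and of HBG1 after DMSO. The 3 fragments lie next to each other or nearly so, and shared position alone gives neighbours common partners, the part of which was not tested.

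Within the control region 10 fragments were listed as partners, from 5275665 to 5300486, all 10 after ponatinib and 7 after DMSO. The fragments from 5286158 to 5289466 and from 5289467 to 5292119, centred 17.9 and 20.8 kb beyond the end of HBE1, were contacted by 5 bait fragments each after ponatinib, and by 3 and 5 after DMSO. The fragment from 5292120 to 5293638 had 2 after ponatinib and 4 after DMSO, and the one from 5295129 to 5297110 had 3 in each list. The fragment from 5289467 to 5292119 holds an end of the olfactory receptor pseudogene OR51AB1P. The members contacted only the 4 fragments centred between 10 and 20.8 kb beyond HBE1, whereas the flanking bait fragments at lower coordinates than HBB also reached those between 22.9 and 29.5 kb. No listed pair ended between HBE1 and the first of these fragments.

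**Figure D4:**
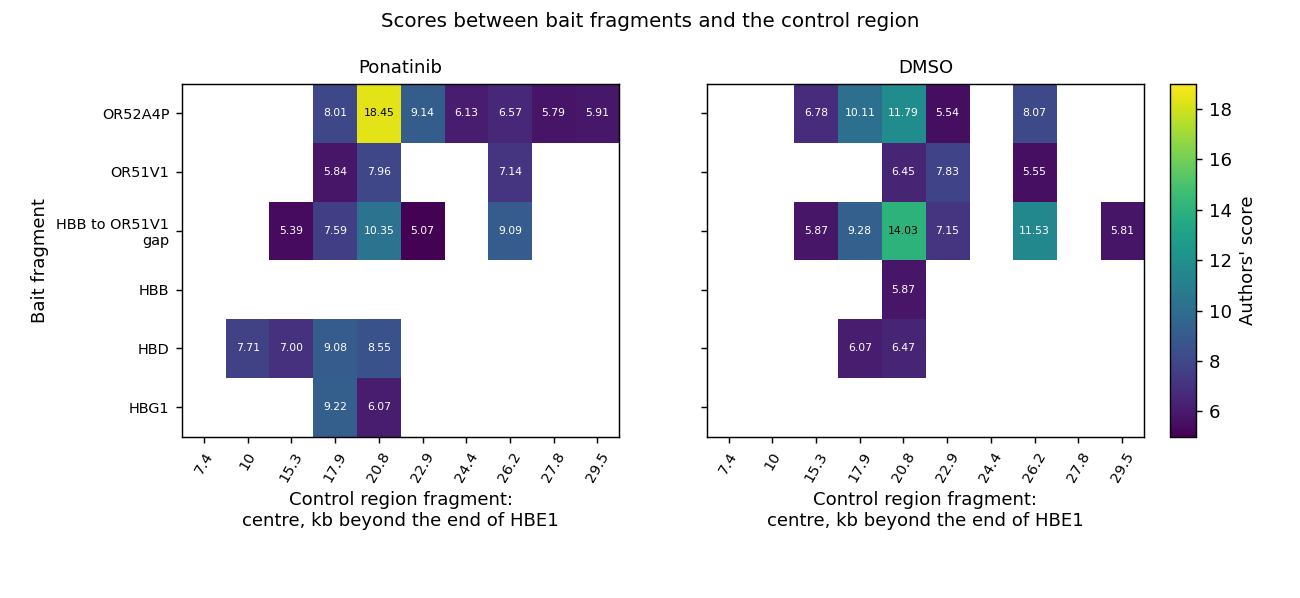
Scores of pairs between 6 bait fragments (rows, in order along the chromosome) and the 10 control region fragments (columns, by the distance of their centre beyond the end of HBE1 in kb) after ponatinib (left) and DMSO (right). Empty cells are pairs that were not listed, and 5 pairs of other bait fragments are not drawn. HBD and HBG1 cells lie at 10 to 20.8 kb, and the highest cells are at 20.8 kb, 18.45 after ponatinib in the OR52A4P row and 14.03 after DMSO in the row of the fragment between HBB and OR51V1.

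Pairs with an end in the control region numbered 24 after ponatinib (15.4 to 35.7) and 19 after DMSO (11.4 to 29.7), and 13 were in both lists. That is 54.2% of the ponatinib pairs (32.8 to 74.4%) and 68.4% of the DMSO pairs (43.4 to 87.4%). The shares over the whole lists, 40.7% and 44.3%, lay inside these intervals. The 5 bait fragments at lower coordinates than HBB that contacted the region in either list lie among olfactory receptor genes. Over the whole stretch they gave 16 of these pairs after ponatinib and 15 after DMSO, and the globin fragments 6 and 3. These totals are not a like comparison, since the 5 were picked by having such a contact and the globin fragments were not. Part of the 16 and 15 pairs lay at fragments centred 22.9 to 29.5 kb beyond HBE1, which no member contacted. In order, these had 2, 1, 3, 2 and 1 pairs after ponatinib and 4, 0, 3, 0 and 1 after DMSO. The fragments at 10 to 20.8 kb had 1, 3, 5 and 5 pairs after ponatinib, of which 1, 1, 2 and 2 were of members. After DMSO they had 1, 2, 3 and 5, of which 0, 0, 1 and 2 were of members. Which fragments hold the enhancer elements was not tested. Besides the 5 low-coordinate bait fragments and the members, the neighbours that contacted the region did so once, in 1 list each. They were the TPP1 fragment, of a lysosomal protease gene 1342 kb away (score 9.18), and the ILK fragment (5.03) after ponatinib, and the TRIM6 fragment, of an antiviral gene family (5.52), after DMSO.

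The bait fragment from 5204094 to 5220239 lies between OR51V1 and HBB and holds no annotated gene end. It contacted 5 control region fragments after ponatinib and 6 after DMSO, of which 5 were shared. Its contact with the fragment from 5289467 to 5292119, 78.6 kb away, scored 10.35 after ponatinib and 14.03 after DMSO, and all 5 of its shared control region scores were lower after ponatinib. The 2 HBD contacts shared by the libraries, with 2 of the same control region fragments, were higher after ponatinib. Whether the fragments differ in this was not tested.

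The OR52A4P bait fragment had 7 control region contacts after ponatinib and 5 after DMSO, of which 4 were shared. Its pair with the fragment from 5289467 to 5292119, 168 kb away across the whole globin cluster, scored 18.45 after ponatinib and 11.79 after DMSO, above 95.8% and 90.1% of their lists. Of its shared control region pairs 2 were lower after ponatinib, scoring 8.01 against 10.11 and 6.57 against 8.07 after DMSO. Over all bait fragments other than the members, 4 of 11 shared control region pairs had the higher score after ponatinib and 7 the lower. Over the whole lists 19949 of 37194 shared pairs were higher after ponatinib and 17162 lower. The OR51V1 fragment had 3 in each list, 2 of them shared, and its pair with the fragment from 5289467 to 5292119, 91.1 kb away, scored 7.96 after ponatinib and 6.45 after DMSO. OR52A5 had 1 after ponatinib (5.02) and a bait fragment with no gene end (5182475 to 5187017) had 1 after DMSO (5.03). Of the control region contacts of all bait fragments other than the members, 2 of 18 after ponatinib scored above the best member pair of that list (9.22), and 7 of 16 after DMSO did (7.55). The pair at 9.22 ended in the control region, but the pair at 7.55, of HBG1 with OR52A4P, did not. The best member score in the region after DMSO was 6.47, so the counts of the libraries have unlike references.

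By partners, the bait fragments most like those of the globin genes were these same neighbours. Of the 18 partner fragments of the members over both lists, 9 (50%) were also partners of the OR52A4P fragment, 9 of the fragment from 5204094 to 5220239 and 8 (44.4%) of the OR51V1 fragment. These were 23.1%, 31.0% and 38.1% of the neighbours' own partners. For the next place 4 fragments were level at 3 partners, those of OR52A5 and OR51B4 and 2 inside OR51B5. The first 3 of these neighbours also contacted the 3 adjoining fragments inside OR51B5 from 5368042 to 5371614, a stretch chosen after its values were seen. The fragment from 5204094 to 5220239 contacted 3 of them in each list, with scores up to 18.18 after ponatinib and 15.78 after DMSO. OR52A4P also contacted 3 in each, with scores up to 19.68 and 12.97, and OR51V1 contacted 2 after ponatinib and 3 after DMSO. The members reached the same stretch with HBB 1 and HBD 2 after ponatinib and with HBG1 2 after DMSO.

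Outside the cluster, other globin genes gave little to set beside these values. HBZ, the embryonic gene of the alpha-globin cluster on chromosome 16, had no pair after ponatinib and 1 after DMSO, and HBA1, HBA2, HBM and HBQ1 had no listed bait fragment. Of 31 genes for factors that bind or loop the globin loci, 27 had a listed bait fragment and 18 had 5 or more interactions in total. Among these 18, 5 had at least 2-fold more interactions after ponatinib and 2 at least 2-fold fewer, against 9.92% and 6.26% of all 9787 genes. The median log2 ratio was 0.54 against 0.08 over those genes. GATA1, the erythroid master regulator, had 5 after ponatinib and 1 after DMSO, and BCL11A, the repressor of the gamma-globin genes, had 7 and 2. NR2F2, a nuclear receptor gene, had 8 and 1, SMC3, a cohesin subunit gene, 7 and 2, and CTCF 9 after ponatinib while it was listed at 0 after DMSO. TCF3, an E protein that partners TAL1, had 1 after ponatinib and 4 after DMSO. MAFG, a small MAF protein that partners NFE2, had 2 and 5 on a fragment that also holds ends of other genes. The NR2F2 and CTCF fragments hold ends of other genes too, such as NR2F2-AS1 and CTCF-DT. No pair of GATA1, BCL11A, NR2F2 or CTCF was in both lists, while SMC3 and TCF3 had 1 such pair each and MAFG 2. At scores of 7 or more 10 of the genes had 5 or more interactions. Then 4 had 2-fold more (LDB1, IKZF1, CTCF and SMC3) and 1 had 2-fold fewer (MYB), against 10.7% and 5.28% of all genes. The median log2 ratio was 0.66, against 0.15 over all genes. GATA1, BCL11A and NR2F2 were not among those past the fold. At scores of 10 or more 4 of the genes had 5 or more interactions. Of these, 1 had 2-fold more (CHD4) and 0 had 2-fold fewer, against 11.9% and 3.31% of all genes. The median log2 ratio was then 0.39, against 0.22 over all genes.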

How the data were processed

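Each treatment of K562 cells gave 1 promoter-capture Hi-C library. HindIII cut the crosslinked chromatin and biotinylated RNA probes captured promoter fragments, per the labels' protocols. For each library the authors deposited a list with a bait fragment, a partner and a score for each interaction. Coordinates are in hg38 (from the submitters' processing notes). What aligner or caller was used, and what defines the score, is not given in the sources used here. No reads are in the lists, so depth is unknown and no count model was used.

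A pair was unordered, since 1 ponatinib pair was listed in both orientations, and pairs were shared when both fragments were identical. Distance was taken between fragment midpoints. Genes came from RefSeq (GRCh38.p14), where 13721 of 20056 protein-coding symbols had an end in a listed bait fragment. The gene table gives no strand. Values were computed with Python 3.11.15, pandas 2.3.3 and scipy 1.17.1, after the counting was tested on simulated lists. Intervals are exact (95%). Alternatives were scores of at least 7 or 10, lists of equal length, gene ends within 1 kb, other limits of the region, pairs with 1 bait, pairs at least 20 kb apart, and ends matched within 5 or 10 kb. Named genes were the members, the globin genes, genes at the partners, the neighbours with most common partners, and regulators past the 2-fold limit. Members and lists were chosen with earlier results of these data known.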

Additional observations from a re-analysis of the deposited data

How the results depend on the processing

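No paired analysis was possible because there was 1 library per treatment and no result comes from a test. Of 62 values under alternatives, 49 stayed within their limits and 13 did not, most of them because a score minimum leaves fewer pairs. At scores of at least 7 the member fragments had 8 pairs after ponatinib and 1 after DMSO, and at 10 they had 0 and 0. Control region pairs numbered 14 and 8 at 7, and 2 and 4 at 10, where the order of the libraries was turned. At 7 the shared part of member pairs after DMSO was 100% and none (0%) reached the control region, both from 1 pair. At 10 the shared part of control region pairs after ponatinib was 100%. With ends matched within 5 or 10 kb it was 79.2% and 83.3%. In lists of equal length HBG1 had 4 pairs after ponatinib and 5 after DMSO, and the members had 14 and 12. In those lists 18 regulators had 5 or more interactions, of which 5 had at least 2-fold more after ponatinib and 4 at least 2-fold fewer. Over all 9579 such genes the shares were 7.54% and 8.63%. Numbers this small and an unknown depth limit every comparison. At a score of 10 no member value of distance or reach exists.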
